A study of Mus musculus with 12 samples.

Results

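The clustered protocadherins are cell adhesion proteins of the cadherin superfamily, encoded by the neighbouring alpha, beta and gamma gene clusters. Their genes were taken from the deposited count table by symbol alone, as Pcdha, Pcdhac, Pcdhb, Pcdhga, Pcdhgb or Pcdhgc followed by a number. This gave 58 of the 24421 genes in the table, of which 14 belong to the alpha, 22 to the beta and 22 to the gamma cluster.

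RNA sequencing was done on mouse embryonic fibroblasts (MEFs) of 2 genotypes, to ask how cells with and without the related transcription factors TFEB and TFE3 respond to DNA damage. Null MEFs are the control genotype, called wild type in the paper, and TFEB/TFE3 DKO MEFs were made with CRISPR. Cells of each genotype were harvested as controls or after 8 h in 100 µM etoposide, which traps topoisomerase II on DNA and leaves double-strand breaks. There were 3 libraries each of Null control, DKO control, Null etoposide and DKO etoposide cells, 12 in all.

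The controls are untreated by the labels and had vehicle by the methods. Each genotype is a single line in these sources, and the paper describes the MEFs as SV40-immortalised, so an effect of the knockout and a difference between lines cannot be told apart. Nothing in the labels says that the replicates are separate cultures, so the p-values measure only the spread between these libraries, which may be technical. In bulk RNA, fewer cells that make a transcript and less transcript per cell cannot be told apart.

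In each cluster, many variable exons stand in tandem, each with a promoter of its own. In neurons a cell turns on a small, largely random set of these promoters through CTCF and cohesin loops to distal enhancers, while DNA methylation and SMCHD1 keep others silent. The proteins form combinatorial homophilic recognition units by which a neuron tells its own branches from those of other neurons, and the C-type genes at the ends of the alpha and gamma clusters are controlled differently from the rest.

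Counts assigned to genes ran from 45577023 to 104120871 per library, with a median of 71634158.5. By group, the lowest, median and highest totals were 66956083, 67654759 and 83970210 in Null control, 66749645, 74826945 and 104120871 in DKO control, 63286195, 75454495 and 76125320 in Null etoposide, and 45577023, 68441372 and 94388705 in DKO etoposide. The 58 protocadherin genes took 0.0115% to 0.0176% of these counts. Levels are given as CPM, counts relative to library totals that were scaled by the trimmed mean of M-values (TMM).

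The targeted genes served as a check on the labels. Tfeb was at 38.9, 39.2 and 42.1 CPM in Null control, 4.60, 6.09 and 4.68 CPM in DKO control, 11.4, 10.2 and 10.4 CPM in Null etoposide, and 1.92, 1.61 and 2.20 CPM in DKO etoposide libraries. Tfe3 was at 115, 110 and 114 CPM in Null control, 94.1, 93.1 and 91.0 CPM in DKO control, 68.5, 69.6 and 68.1 CPM in Null etoposide, and 70.7, 71.2 and 63.4 CPM in DKO etoposide libraries. Tfeb separated the genotypes in every library under both treatments, and Tfe3 RNA did so in controls but not after etoposide, so that the Tfe3 counts check the label only in part. The log2 fold change of Tfe3 after etoposide, -0.01, became 0.03 without DKO etoposide replicate 3.

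The fibroblast label was checked with 18 markers, whose summed level was 9003 ± 99.1 CPM (SD, n = 3) in Null control, 15061 ± 387 CPM in DKO control, 4799 ± 51.3 CPM in Null etoposide and 6626 ± 202 CPM in DKO etoposide libraries. Vim took the most counts of them over the 12 libraries together, and Fn1 did in DKO etoposide libraries. Collagen gene Col1a1 stood at 1156, 1164 and 1195 CPM in Null control and 2135, 2290 and 2101 CPM in DKO control libraries. Defining markers were not all high: Lum stayed between 0.0732 and 0.933 CPM in the 12 libraries, and Thy1, at 4.50, 4.10 and 4.03 CPM in Null control, was at 0.0602, 0.0326 and 0.0168 CPM in DKO control libraries. Of the 18 markers, 15 were higher (83.3%) and 2 lower (11.1%) in DKO than in Null control, and 15 higher (83.3%) and 2 lower (11.1%) after etoposide, the lower ones being Thy1 and Twist1 in control and Thy1 and Vim after etoposide, where Thy1 passed the filter on low counts through Null libraries alone. The part of this difference between the lines in the protocadherin results was not tested.

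The structure of the clusters bears on what a count means. On chromosome 18 of GRCm38, by the GENCODE M21 annotation, the alpha genes lie from 36930184 to 37187661, the beta genes from 37264938 to 37524479 and the gamma genes from 37661793 to 37841873. That annotation places 56 of the 58 genes, and Pcdha10 and Pcdha11 are not in it. Alpha and gamma genes share constant exons, which make up a median of 53.5% of the exon length of an alpha gene and 44.7% of that of a gamma gene, while the beta genes share none except where Pcdhb21 and Pcdhb22 overlap.

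Reads in the constant exons were not credited to every gene that holds them, since Pcdhgb1 had 0, 1 and 2 counts in the DKO control libraries in which Pcdhgc3, with the same constant exons, was at 63.6, 67.4 and 63.7 CPM. Per library, 0.428% to 0.513% of reads were set aside as ambiguous between genes. Whether reads in the constant exons were among these or went to 1 gene, such as Pcdhgc3, is not given in the sources used here. The level of Pcdhgc3 relative to other genes is therefore uncertain. Of the 58 genes 27, with all 22 gamma genes among them, overlap another gene model on the same strand in exons, which no strand setting would separate. Another overlap, with a gene on the opposite strand, is found for 12, Pcdhgc3 among them, and the strand setting of the counting is not given either. Stretches of 75 bases that also occur in another gene made up a median of 0.945% of the windows of a beta gene, with a highest value of 4.05%, and up to 13.2% of those of a gamma gene, Pcdhgb1. In alpha genes the median was 7.80% and the highest value 16.7%, and reads there may be lost where only uniquely placed pairs are counted.

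Most alpha genes were at or near 0. More than 3 counts in at least 1 library were reached by 43 of the 58 genes in Null control, 42 in DKO control, 40 in Null etoposide and 41 in DKO etoposide, and by 46 in any group. All 22 beta and all 22 gamma genes were among these 46, with only Pcdha9 and Pcdhac2 of the 14 alpha genes. Pcdhb1 was among them through 8 counts in 1 DKO etoposide library, with 0 in every other library. At a stricter floor of more than 10 counts in at least 1 library, 41 of the 58 genes remained. These were 18 of the 22 beta genes, all 22 gamma genes and 1 alpha gene. Pcdha9 had 4 counts in 1 Null control library and at most 2 in each other library, Pcdha3 at most 2 and Pcdhac1 1 count over the 12 libraries.

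The 58 genes together stood at 123 ± 3.56 CPM in Null control, 165 ± 5.62 CPM in DKO control, 157 ± 4.91 CPM in Null etoposide and 113 ± 1.70 CPM in DKO etoposide libraries. Most of this came from Pcdhgc3 in Null MEFs, which held 62.5% of the family's counts in control and 73.1% after etoposide, against 39.3% and 50.8% in DKO MEFs. Beta genes held 26.4% in Null control, 49.7% in DKO control, 17.7% in Null etoposide and 37.8% in DKO etoposide libraries. The family was thus divided between 1 gamma gene and the beta cluster, in proportions that differed between the lines.

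Summed over the cluster, beta genes were at 32.3 ± 2.40 CPM in Null control, 82.2 ± 3.59 CPM in DKO control, 27.8 ± 1.14 CPM in Null etoposide and 42.6 ± 2.04 CPM in DKO etoposide libraries. Gamma genes were at 89.9 ± 3.81, 83.1 ± 2.29, 129 ± 4.43 and 69.9 ± 0.347 CPM in the same order of groups, and alpha genes at 0.383 ± 0.127, 0.0123 ± 0.0111, 0.436 ± 0.0737 and 0.0247 ± 0.0140 CPM. With Pcdhgc3 left out, the family was at 46.0 ± 2.78 CPM in Null control, 100 ± 4.46 CPM in DKO control, 42.4 ± 1.58 CPM in Null etoposide and 55.4 ± 1.81 CPM in DKO etoposide libraries. The order of the groups for the whole family therefore depended on Pcdhgc3.

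**Figure D1:**
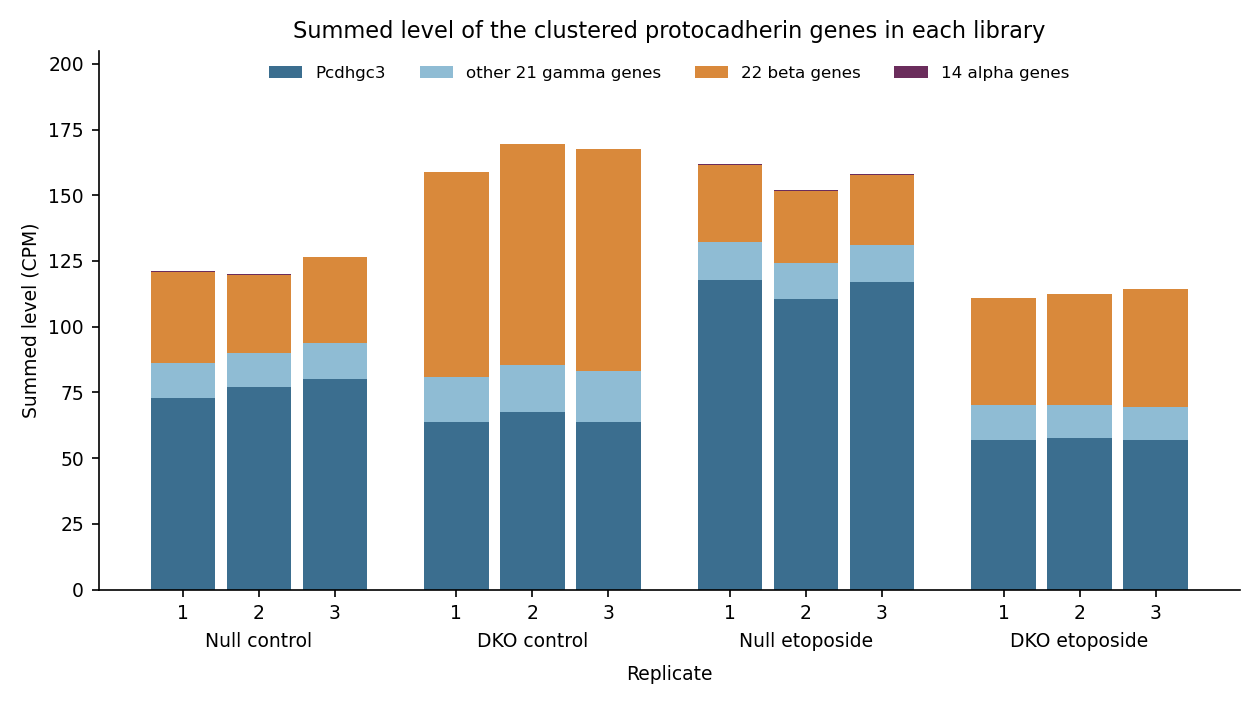
Summed level in CPM (vertical axis, from 0) of the clustered protocadherin genes in each of the 12 libraries, stacked as Pcdhgc3, the other gamma genes, the beta genes and the alpha genes, whose layer is too thin to see in most bars. The beta layer averages 82.2 CPM in DKO control against 32.3 CPM in Null control, and the Pcdhgc3 layer 115 CPM in Null etoposide against 57.1 CPM in DKO etoposide libraries.

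Levels can be compared between genes only per length, here per kilobase of the exons that a gene does not share. On this scale Pcdhgc3, the first gamma C-type gene, was at 22.7 ± 1.06 CPM per kb in Null control, and the next genes were Pcdhb17 at 2.12 ± 0.0666, Pcdhb21 at 0.921 ± 0.172, Pcdhb22 at 0.913 ± 0.159, Pcdhb18 at 0.847 ± 0.0909 and Pcdhgc4 at 0.767 ± 0.0457 CPM per kb. Pcdhb21, Pcdhb22, Pcdhb18 and Pcdhgc4 did not differ beyond their spread. In DKO control, Pcdhgc3 at 19.2 ± 0.636 CPM per kb was followed by Pcdhb16 at 4.10 ± 0.405, Pcdhb17 at 3.33 ± 0.204, Pcdhb21 at 2.41 ± 0.219, Pcdhga10 at 2.18 ± 0.256, Pcdhb22 at 1.91 ± 0.103 and Pcdhb18 at 1.28 ± 0.0973 CPM per kb. The order differed between the lines below the first place, with Pcdhb16 and Pcdhga10 higher in the order and Pcdhgc4 far lower in DKO MEFs.

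The counts were uneven along the beta cluster. The 9 genes from Pcdhb14 to Pcdhb22, a stretch singled out after its values were seen, were at 31.3 ± 2.24 CPM in Null control and 79.4 ± 3.58 CPM in DKO control, and the 13 genes from Pcdhb1 to Pcdhb13 at 1.05 ± 0.205 and 2.78 ± 0.190 CPM. After etoposide, the first stretch was at 26.9 ± 1.06 CPM in Null and 40.6 ± 2.05 CPM in DKO MEFs, and the second at 0.953 ± 0.0761 and 1.94 ± 0.260 CPM. Counts in both lines were concentrated at the same end of the cluster, the one next to the gamma genes.

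**Figure D2:**
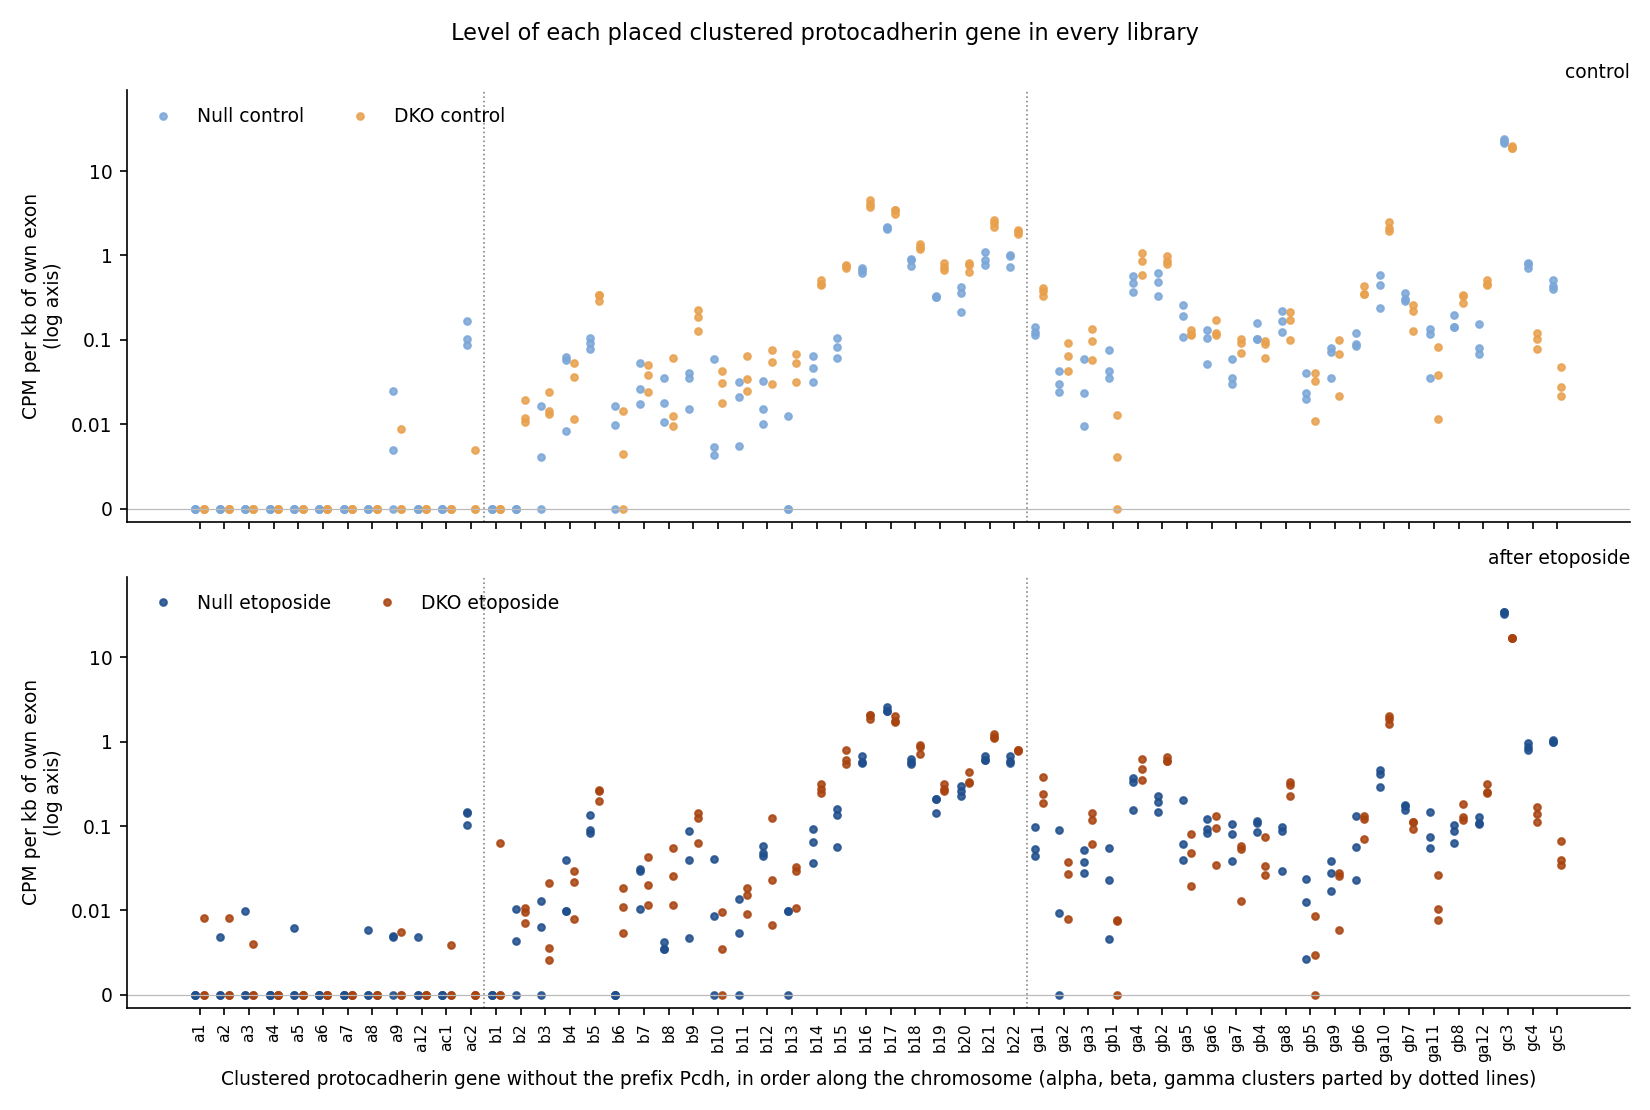
Level of each of the 56 placed genes in CPM per kilobase of unshared exon (vertical log axis, with libraries at 0 on the lowest line) in order along the chromosome, 1 point per library, in control (top) and after etoposide (bottom). Alpha genes except Pcdhac2 lie at or near 0, Pcdhgc3 lies highest in every group, and Pcdhb14, Pcdhb15 and Pcdhb16 lie higher in DKO than in Null libraries.

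Differences between groups were tested for 35 of the 58 genes, which passed edgeR's filter on low counts together with 15220 of 24421 genes in all. They were 14 beta genes, 20 gamma genes and, from the alpha cluster, Pcdhac2 alone. A gene with few counts could pass through 1 group in which it was high and then tends to differ, so counts among these 35 describe the tested genes and not the family. The cutoff of the filter was reached in at least 3 libraries of each line by 27 of the 35 and in at least 3 of each treatment by 30, a split made after the data were seen. The others passed through 1 side alone or only over both together, and their calls are no support for a direction. Of the 23 genes that were not tested, 12 had at most 3 counts in every library, and the highest count of any was 23, in Pcdhb13.

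The first comparison, DKO against Null MEFs in control, shows how the lines differed before damage. Past an adjusted p of 0.05 in edgeR's quasi-likelihood test after Benjamini-Hochberg adjustment over all tested genes, 19 of the 35 genes were higher in DKO (54.3%, where 33.4% of all tested genes were higher) and 4 were lower (11.4%, where 34.1% of all tested genes were lower). Pcdhb9 and Pcdhga3 among the higher genes passed the filter through DKO libraries alone, and Pcdhac2 among the lower through Null libraries alone. Over the 27 genes at the cutoff in both lines, 17 were higher (63%, where 37% of all such genes were) and 3, the C-type genes of the gamma cluster, were lower (11.1%, where 34.4% were). The median log2 fold change of the 35 was 0.96, beside -0.02 over all tested genes. By cluster, 11 of 14 beta genes were higher (78.6%) and 0 lower (0 by edgeR at an unadjusted p under 0.05, 0 by DESeq2 and 0 by limma), and 8 of 20 gamma genes were higher (40%, near the 33.4% of all tested genes) and 3 lower (15%), with Pcdhac2 the other lower gene. Without DKO control replicate 2, the count of lower genes was 7 in place of 4. Leaving out 1 library gave medians of 0.76 to 0.93 for the tested genes of the family.

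Scaling moves this comparison for all genes. With library size alone in place of TMM, the all-gene median shifted by -0.12, and the calls over all genes went from 5080 higher and 5183 lower to 3997 higher and 6473 lower. The median of the 35 lay above the all-gene median by 0.99 with TMM, 0.99 with DESeq2 size factors and 0.98 with library size alone.

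All 4 lower genes were C-type, and 1 of them, Pcdhac2, could hardly be other than lower. C-type genes close the alpha and gamma clusters, and in neurons they follow rules of their own. Pcdhgc3, which is widely expressed outside neurons, was at 72.9, 77.1 and 80.0 CPM in Null control, 63.6, 67.4 and 63.7 CPM in DKO control, 118, 110 and 117 CPM in Null etoposide, and 56.9, 57.7 and 56.8 CPM in DKO etoposide libraries. Its libraries were highest in Null etoposide and lowest in DKO etoposide, with no overlap between any of the 4 groups. The log2 fold change of DKO against Null MEFs was -0.24 ± 0.04 (SE) in control (edgeR's quasi-likelihood test after Benjamini-Hochberg adjustment, adjusted p = 5.99e-05). After etoposide it was -1.01 ± 0.04 (same edgeR test after Benjamini-Hochberg adjustment, adjusted p = 1.03e-12).

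Pcdhgc4, the gamma gene with a recognised part in neuronal survival, was at 2.72, 2.49 and 2.80 CPM in Null control, 0.271, 0.359 and 0.419 CPM in DKO control, 3.36, 2.75 and 2.98 CPM in Null etoposide, and 0.587, 0.478 and 0.387 CPM in DKO etoposide libraries. Every Null library stood above every DKO library. Pcdhgc4 was lower in DKO by edgeR's quasi-likelihood test after Benjamini-Hochberg adjustment, with a log2 fold change of -2.93 ± 0.21 (adjusted p = 2.57e-09) in control and of -2.68 ± 0.21 (adjusted p = 3.76e-09) after etoposide.

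Pcdhgc5, the last gene of the gamma cluster, was at 2.84, 2.18 and 2.36 CPM in Null control, 0.120, 0.261 and 0.151 CPM in DKO control, 5.75, 5.50 and 5.45 CPM in Null etoposide, and 0.364, 0.219 and 0.189 CPM in DKO etoposide libraries. Null libraries were again all above DKO libraries, and Null etoposide libraries were above the Null controls. Pcdhgc5 was lower in DKO by edgeR's quasi-likelihood test after Benjamini-Hochberg adjustment, with a log2 fold change of -3.72 ± 0.26 (adjusted p = 1.1e-09) in control and of -4.52 ± 0.24 (adjusted p = 3.07e-11) after etoposide.

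Pcdhac2, the last gene of the alpha cluster, had 41, 20 and 17 counts in the Null control libraries, 1, 0 and 0 in DKO control, 36, 26 and 30 in Null etoposide and 0, 0 and 0 in DKO etoposide libraries. It was counted in every Null library and was absent or at a single count in the DKO libraries. The ratio in control was 80.5-fold lower in DKO, with an exact binomial 95% interval of 14.04 to 3222, and after etoposide the level in DKO was at least 29.4-fold lower, taking 3 counts over the group as the floor. Such intervals and floors cover counting error only. Pcdhac2 passed the filter through the Null groups alone, so its place among the lower genes under either treatment does not support a direction of the family.

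**Figure D3:**
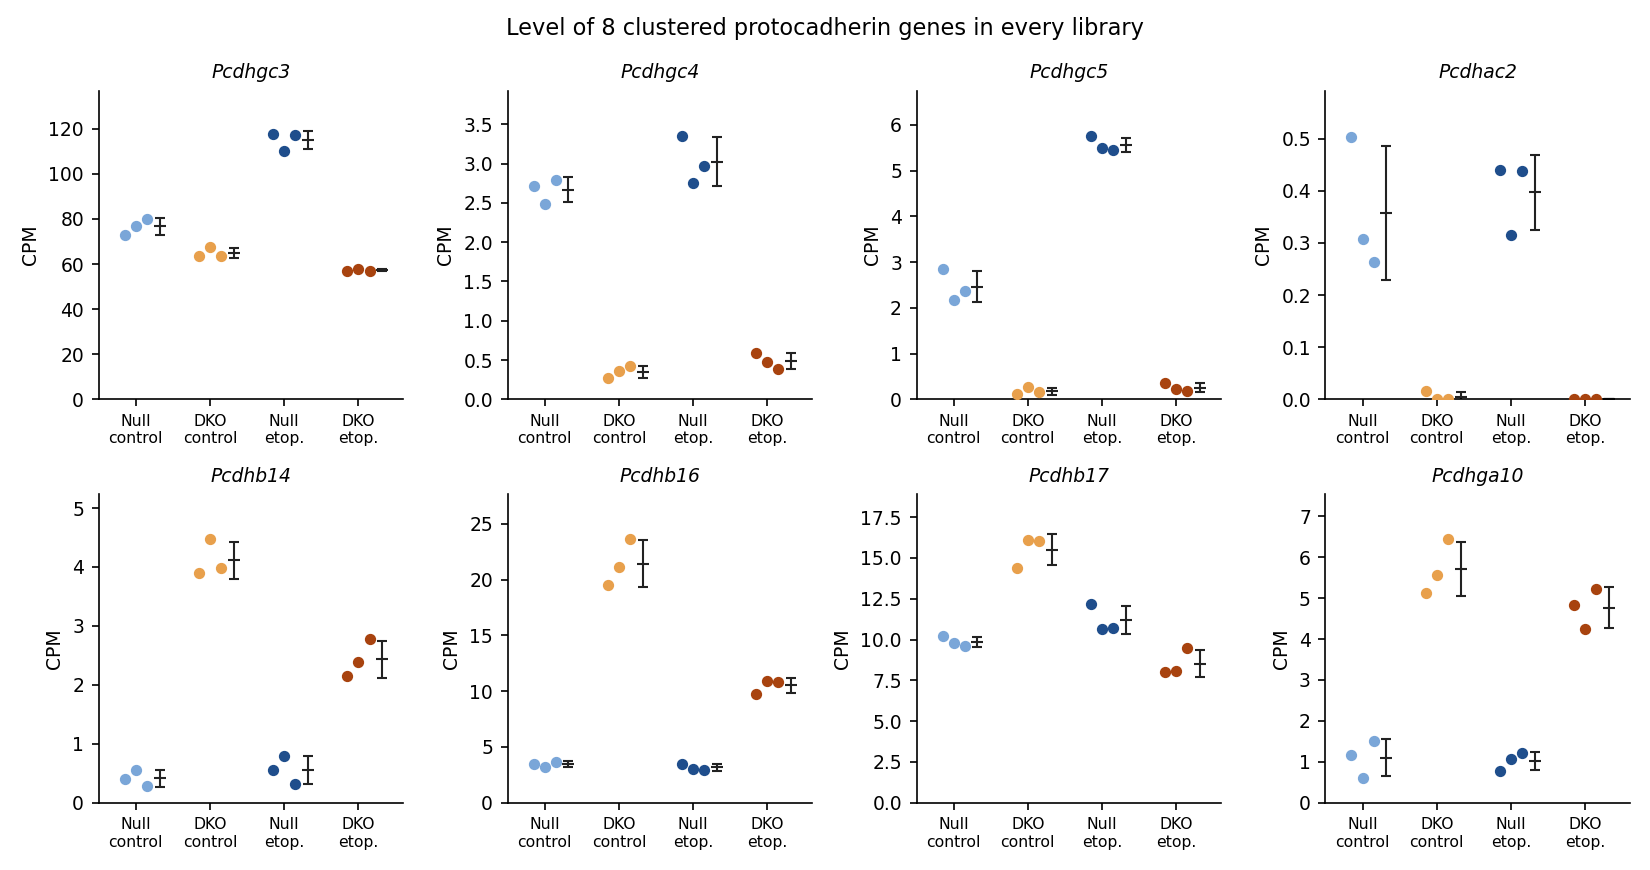
Level in CPM (vertical axes, each from 0) of 4 C-type genes (top) and of Pcdhb14, Pcdhb16, Pcdhb17 and Pcdhga10 (bottom) in the 12 libraries, with 1 point per library and the mean ± SD (n = 3) beside them. Pcdhgc4, Pcdhgc5 and Pcdhac2 are lower in every DKO library than in any Null library, whereas Pcdhb14, Pcdhb16 and Pcdhga10 are higher in every DKO library.

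Several beta genes differed in the opposite direction. Beta genes have no constant exons and encode whole receptors in single exons. Pcdhb14 was at 0.406, 0.553 and 0.278 CPM in Null control, 3.90, 4.47 and 3.98 CPM in DKO control, 0.561, 0.799 and 0.321 CPM in Null etoposide, and 2.15, 2.39 and 2.77 CPM in DKO etoposide libraries. Every DKO library exceeded every Null library, and the control DKO libraries were the highest. The log2 fold change of Pcdhb14 in DKO against Null MEFs was 3.32 ± 0.27 (adjusted p = 9.38e-09) in control and 2.11 ± 0.26 (adjusted p = 1.31e-06) after etoposide, by edgeR's quasi-likelihood test after Benjamini-Hochberg adjustment.

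Pcdhb15, its neighbour, was at 0.172, 0.292 and 0.232 CPM in Null control, 2.09, 1.98 and 2.16 CPM in DKO control, 0.159, 0.448 and 0.379 CPM in Null etoposide, and 1.54, 1.69 and 2.22 CPM in DKO etoposide libraries. Its DKO libraries overlapped each other across treatments and lay above all Null libraries. In DKO the log2 fold change was 3.17 ± 0.32 (adjusted p = 1.6e-07) in control and 2.48 ± 0.30 (adjusted p = 1.31e-06) after etoposide, by edgeR's quasi-likelihood test after Benjamini-Hochberg adjustment.

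Pcdhb16, the most abundant beta gene of DKO control cells per length, was at 3.51, 3.23 and 3.69 CPM in Null control, 19.5, 21.1 and 23.7 CPM in DKO control, 3.51, 3.03 and 2.96 CPM in Null etoposide, and 9.75, 10.9 and 10.9 CPM in DKO etoposide libraries. Null libraries were low under both treatments, and DKO libraries were high, more so in control. By edgeR's quasi-likelihood test after Benjamini-Hochberg adjustment, Pcdhb16 had a log2 fold change of 2.62 ± 0.10 (adjusted p = 4.31e-13) in DKO control and of 1.73 ± 0.10 (adjusted p = 8.99e-11) after etoposide.

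Pcdhb17, the most abundant beta gene per length in Null MEFs, was at 10.2, 9.79 and 9.61 CPM in Null control, 14.4, 16.1 and 16.0 CPM in DKO control, 12.2, 10.7 and 10.7 CPM in Null etoposide, and 7.99, 8.08 and 9.48 CPM in DKO etoposide libraries. The DKO libraries were the highest in control and the lowest after etoposide. The direction thus changed, with a log2 fold change in DKO of 0.65 ± 0.08 (adjusted p = 2.74e-06) in control and of -0.39 ± 0.08 (adjusted p = 0.000647) after etoposide, by edgeR's quasi-likelihood test after Benjamini-Hochberg adjustment.

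All 9 genes of the stretch from Pcdhb14 to Pcdhb22, picked out because of such values and so not tested as a group, were higher in DKO control than in Null control, with log2 fold changes from 0.59 in Pcdhb18 to 3.32 in Pcdhb14. After etoposide, 7 of the 9 were higher (77.8%) and Pcdhb17 was lower (11.1%). Over all tested genes, 33.4% were higher in control, and 36.9% were higher and 35.2% lower after etoposide. Of the other 5 tested beta genes, Pcdhb5 and Pcdhb9 were higher in control, and Pcdhb5 was also higher after etoposide.

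Gamma genes of the A and B types, which alternate along the cluster, were on the whole low. Summed Pcdhga genes were at 4.63 ± 0.340 CPM in Null control, 12.5 ± 0.790 CPM in DKO control, 3.65 ± 0.149 CPM in Null etoposide and 9.27 ± 0.489 CPM in DKO etoposide libraries. Summed Pcdhgb genes were at 3.50 ± 0.285, 5.16 ± 0.184, 1.86 ± 0.154 and 2.80 ± 0.205 CPM in that order. In control, 5 of 12 tested Pcdhga genes, Pcdhga1, Pcdhga3, Pcdhga4, Pcdhga10 and Pcdhga12, were higher in DKO (41.7%, near the 33.4% of all tested genes) and 0 lower, and of 5 tested Pcdhgb genes Pcdhgb2, Pcdhgb6 and Pcdhgb8 were higher (60%) and none lower. Pcdhga3 is no support for that share, as it passed the filter through DKO libraries alone. At an unadjusted p under 0.05 in edgeR 0 genes of either type were lower, and with limma Pcdhgb7 was. Of these higher genes, Pcdhga3 (1.67) no longer passed without Null control replicate 1 (1.20) or 2 (1.53) or DKO control replicate 2 (1.66) or 3 (1.37), and Pcdhga4 (0.81) no longer without Null control replicate 1 (0.81) or 3 (0.67) or DKO control replicate 1 (0.78) or 3 (0.61), with library size alone (0.69) or with a replicate block (0.78). Pcdhgb8 (0.97) no longer passed without Null control replicate 2 (0.89) or 3 (0.89) or DKO control replicate 2 (0.91).

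Pcdhga10 was at 1.17, 0.615 and 1.51 CPM in Null control, 5.13, 5.55 and 6.44 CPM in DKO control, 0.769, 1.08 and 1.21 CPM in Null etoposide, and 4.84, 4.23 and 5.22 CPM in DKO etoposide libraries. DKO libraries lay above Null libraries under both treatments, and the treatments overlapped within each line. Its log2 fold change in DKO was 2.37 ± 0.23 (adjusted p = 8.81e-08) in control and 2.23 ± 0.23 (adjusted p = 1.66e-07) after etoposide, by edgeR's quasi-likelihood test after Benjamini-Hochberg adjustment. Pcdhga10 overlaps a gene model on the opposite strand, so its count is uncertain where reads of both could be mixed.

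Pcdhga12, near the end of the A- and B-type genes, was at 0.369, 0.707 and 0.309 CPM in Null control, 2.32, 2.11 and 2.03 CPM in DKO control, 0.488, 0.484 and 0.583 CPM in Null etoposide, and 1.42, 1.11 and 1.16 CPM in DKO etoposide libraries. Here too every DKO library was above every Null library. DKO against Null MEFs gave a log2 fold change of 2.23 ± 0.27 (adjusted p = 1.46e-06) in control, by edgeR's quasi-likelihood test after Benjamini-Hochberg adjustment. It overlaps the same gene model on the opposite strand.

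Pcdhgb2, the B-type gene with the highest mean level per length, was at 0.922, 1.72 and 1.33 CPM in Null control, 2.17, 2.39 and 2.73 CPM in DKO control, 0.537, 0.630 and 0.408 CPM in Null etoposide, and 1.62, 1.84 and 1.64 CPM in DKO etoposide libraries. Null etoposide libraries were the lowest and DKO control libraries the highest. By edgeR's quasi-likelihood test after Benjamini-Hochberg adjustment, its log2 fold change in DKO control was 0.88 ± 0.22 (adjusted p = 0.00214). Pcdhgb7, also of the B type, was at 0.799, 0.753 and 0.927 CPM in Null control and 0.331, 0.663 and 0.570 CPM in DKO control, a difference that did not pass the test with all libraries and passed without DKO control replicate 2, with a log2 fold change of -0.88.

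After etoposide, DKO against Null MEFs compares the lines under damage and uses other libraries than the comparison in control. Of the 35 tested genes, 14 were higher in DKO (40%, where 36.9% of all tested genes were higher) and 7 were lower (20%, where 35.2% of all tested genes were lower). Pcdhga3 among the higher genes passed the filter through DKO libraries alone, and Pcdhac2 and Pcdhga11 among the lower through Null libraries alone. Over the 27 genes at the cutoff in both lines, 13 were higher (48.1%, where 41.3% of all such genes were) and 5, Pcdhgc3, Pcdhgc4, Pcdhgc5, Pcdhb17 and Pcdhgb4, were lower (18.5%, where 33.3% were). The median log2 fold change of the 35 was 0.47, beside -0.00 over all tested genes. The medians were 0.55 for the 14 tested beta genes and -0.28 for the 20 tested gamma genes, both with the same sign under the 3 scalings. Over the genes at the cutoff in both lines they were 0.58 and 0.17, so the sign of the gamma median depends on the filter. Leaving out 1 library, which also changes the genes that pass the filter, gave 0.72 to 0.80 for beta and -0.67 to -0.28 for gamma genes.

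The 4 C-type genes were again lower, Pcdhac2 with 0 counts in DKO as noted. The other lower genes were Pcdhb17, Pcdhga11 and Pcdhgb4. Pcdhgb6 was higher only without Null etoposide replicate 2 (1.41). Pcdhga11 (-2.46) no longer passed without Null etoposide replicate 1 (-1.95), and Pcdhgb4 (-1.27) no longer without Null etoposide replicate 3 (-1.18) or DKO etoposide replicate 2 (-1.04) or 3 (-1.10). Among the higher genes, Pcdhga3 (1.40) no longer passed without Null etoposide replicate 1 (1.65), 2 (1.36) or 3 (1.23) or DKO etoposide replicate 1 (1.31) or 2 (1.10), nor with DESeq2 size factors (1.34), DESeq2 (1.37), no filter (1.39) or a replicate block (1.38). Pcdhga8, near the middle of the gamma cluster, was at 0.307, 0.415 and 0.556 CPM in Null control, 0.542, 0.435 and 0.252 CPM in DKO control, 0.244, 0.218 and 0.0729 CPM in Null etoposide, and 0.769, 0.833 and 0.576 CPM in DKO etoposide libraries. The lines overlapped in control and separated after etoposide. Its log2 fold change in DKO after etoposide was 1.98 ± 0.44 (edgeR's quasi-likelihood test after Benjamini-Hochberg adjustment, adjusted p = 0.000667). Pcdhga8 also overlaps a gene model on the opposite strand.

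**Figure D4:**
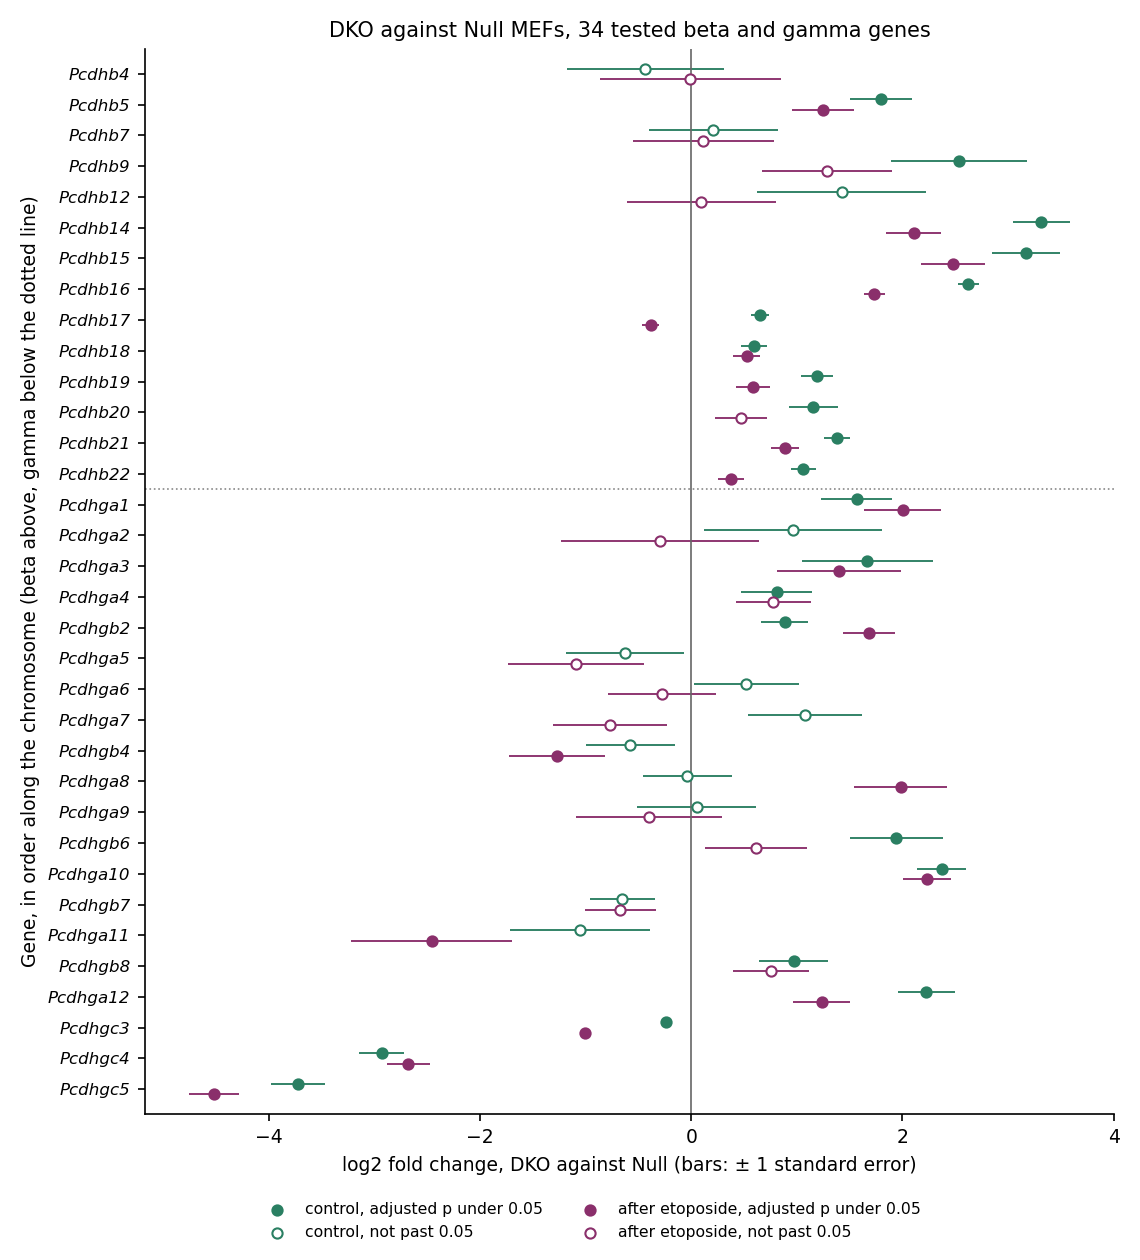
Log2 fold change of DKO against Null MEFs (horizontal axis, ± 1 SE) for the 34 tested beta and gamma genes in order along the chromosome, in control and after etoposide, with filled points where edgeR's adjusted p was under 0.05. The beta genes from Pcdhb14 to Pcdhb22 lie right of 0 in control, between 0.59 and 3.32, and the 3 gamma C-type genes lie left of 0 under both treatments.

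The effect of etoposide was measured within each line, on the same libraries as the comparisons between lines, so the results are not independent. In Null MEFs, 2 of the 35 tested genes were higher after etoposide (5.71%, where 41.7% of all tested genes were higher) and 9 were lower (25.7%, where 36.8% of all tested genes were lower). No called gene passed the filter through 1 treatment alone. Over the 30 genes at the cutoff under both treatments, 6.67% were higher (35.6% of all such genes) and 30% lower (42.4% of all such genes). The median of the 35 was -0.13, beside 0.07 over all tested genes, and became 0.03 with library size alone. Leaving out 1 library, which lets 38 to 40 genes pass the filter, gave medians from -0.40 to -0.17, all further below 0 than with every library. With that scaling, the all-gene median shifted by 0.17 and the calls over all genes went from 6342 higher and 5598 lower to 7656 higher and 4350 lower. Relative to the all-gene median, the median of the 35 was -0.20 with each of the 3 scalings.

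The higher genes were Pcdhgc3 and Pcdhgc5. The log2 fold change of etoposide against control in Null MEFs was 0.59 ± 0.04 (adjusted p = 6.59e-10) for Pcdhgc3 and 1.17 ± 0.18 (adjusted p = 1.63e-05) for Pcdhgc5, by edgeR's quasi-likelihood test after Benjamini-Hochberg adjustment. Pcdhgc4 and Pcdhac2 did not pass, with adjusted p of 0.347 and 0.795 in the same edgeR test after Benjamini-Hochberg adjustment. Whether the C-type genes differed from each other was not tested.

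The lower genes were 4 of 14 tested in the beta cluster (28.6%), Pcdhb18, Pcdhb19, Pcdhb21 and Pcdhb22, and 5 of 20 in the gamma cluster (25%), Pcdhga1, Pcdhga8, Pcdhgb2, Pcdhgb7 and Pcdhgb8, where 36.8% of all tested genes were lower. Pcdhgb2 had the largest fall, with a log2 fold change of -1.31 ± 0.25 (edgeR's quasi-likelihood test after Benjamini-Hochberg adjustment, adjusted p = 0.000144). Pcdhga8 followed at -1.21 ± 0.45 (adjusted p = 0.0215) and Pcdhga1 at -0.93 ± 0.38 (adjusted p = 0.0339) in edgeR's quasi-likelihood test after Benjamini-Hochberg adjustment. Calls for Pcdhga8, Pcdhga1, Pcdhgb7 and Pcdhgb8 hung on single libraries. Pcdhga8 no longer passed without Null control replicate 3 (-0.99) or Null etoposide replicate 3 (-0.88). Pcdhga1 no longer passed without Null control replicate 1 (-0.85) or 3 (-0.96), or without Null etoposide replicate 2 (-0.72) or 3 (-0.83), and Pcdhgb7 no longer without Null etoposide replicate 2 (-0.85). Pcdhgb8 (-0.93) no longer passed without Null control replicate 1 (-0.75) or Null etoposide replicate 2 (-0.76), nor with library size alone (-0.76). Pcdhb14, Pcdhb15 and Pcdhgb6 did not pass with all libraries and did so without Null etoposide replicate 3 (0.71), 1 (0.85) and 2 (-1.26) in turn.

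In DKO MEFs, 16 of the 35 tested genes were lower after etoposide (45.7%, where 31.3% of all tested genes were lower) and none was higher (0%, where 44% of all tested genes were higher). At an unadjusted p under 0.05, edgeR gave 0 higher genes as well, and DESeq2 and limma gave 0 at an adjusted p under 0.05. Pcdhga9 among the lower genes passed the filter through control libraries alone. Over the 30 genes at the cutoff under both treatments, 15 were lower (50%, where 36% of all such genes were) and 0 higher (39.5% of all such genes). The median of the 35 was -0.77, or -0.76 with Pcdhac2 set to no change, beside 0.14 over all tested genes.

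These counts moved with the scaling. With library size alone, 3 of the 35 were higher and 9 lower, while the all-gene median shifted by 0.27 and the calls over all genes went from 6702 higher and 4757 lower to 9351 higher and 2975 lower. The median of the 35 stayed below the all-gene median with every scaling, by -0.90 with TMM and with DESeq2 size factors and by -0.91 with library size alone. Pcdhgc3 had a log2 fold change of -0.18 ± 0.04 (edgeR's quasi-likelihood test after Benjamini-Hochberg adjustment, adjusted p = 0.000717) with TMM and of 0.09 with library size alone, so its direction in DKO MEFs depends on the scaling.

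With TMM, 8 of the 14 tested beta genes were lower (57.1%), all within the stretch from Pcdhb14 to Pcdhb22, and 8 of the 20 tested gamma genes were lower (40%), where 31.3% of all tested genes were. Pcdhgb6, of the B type, was at 1.13, 0.902 and 0.906 CPM in DKO control and 0.182, 0.341 and 0.308 CPM in DKO etoposide libraries, without overlap. Its log2 fold change of -1.78 ± 0.44 was the largest fall in edgeR's quasi-likelihood test after Benjamini-Hochberg adjustment (adjusted p = 0.00162).

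Pcdhb19 was at 2.29, 2.38 and 2.27 CPM in Null control, 5.14, 5.81 and 4.85 CPM in DKO control, 1.51, 1.49 and 1.02 CPM in Null etoposide, and 1.94, 1.87 and 2.22 CPM in DKO etoposide libraries. Etoposide libraries were below the controls in both lines. Etoposide gave a log2 fold change of -1.38 ± 0.15 (adjusted p = 4.16e-07) in DKO and -0.78 ± 0.16 (adjusted p = 0.000363) in Null MEFs, by edgeR's quasi-likelihood test after Benjamini-Hochberg adjustment. Pcdhb22, at the end of the cluster, was at 12.4, 11.7 and 11.2 CPM in DKO control and 4.86, 4.97 and 4.83 CPM in DKO etoposide libraries, well apart, with a log2 fold change of -1.27 ± 0.12 (edgeR's quasi-likelihood test after Benjamini-Hochberg adjustment, adjusted p = 4.6e-08). Among the lower gamma genes, Pcdhgb2 (-0.51) no longer passed without DKO control replicate 2 (-0.56) or 3 (-0.43) or without DKO etoposide replicate 1 (-0.50) or 3 (-0.49), and Pcdhgb7 (-0.93) no longer without DKO control replicate 2 (-0.73). Pcdhga1 passed only without DKO etoposide replicate 1 (-0.82). Pcdhga9 (-1.58) no longer passed without DKO control replicate 2 (-1.08) or 3 (-1.56) or DKO etoposide replicate 1 (-1.28) or 3 (-1.81), and Pcdhga4 (-0.76) no longer without DKO control replicate 1 (-0.77) or 3 (-0.56) or DKO etoposide replicate 1 (-0.62) or 2 (-0.75).

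Whether the lines responded differently was tested by the interaction, the etoposide effect in DKO minus that in Null MEFs. It was below 0 for 8 of the 35 tested genes (22.9%, where 24.7% of all tested genes were below) and above 0 for Pcdhga8 alone (2.86%, where 29.9% of all tested genes were above). The share below 0 was near the background, and the share above was under it. By cluster, 6 of 14 tested beta genes (42.9%) and 2 of 20 tested gamma genes (10%) were below 0, on either side of the 24.7%. The median was -0.68, beside 0.05 over all tested genes. With library size alone, 2 were above and 5 below 0, the all-gene median shifted by 0.10, and the calls over all genes went from 4553 above and 3757 below to 5782 above and 3110 below. With DESeq2 size factors the all-gene values moved the other way, to a median of -0.01 with 3862 above and 4236 below 0.

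The genes below 0 were Pcdhb14, Pcdhb16, Pcdhb17, Pcdhb19, Pcdhb21, Pcdhb22, Pcdhga12 and Pcdhgc3. Pcdhgc3 differed by -0.77 ± 0.06 (adjusted p = 7.7e-09), Pcdhb17 by -1.04 ± 0.12 (adjusted p = 1.39e-06) and Pcdhb16 by -0.89 ± 0.14 (adjusted p = 4.14e-05) on the log2 scale in edgeR's quasi-likelihood test after Benjamini-Hochberg adjustment. For Pcdhb17, etoposide alone gave 0.18 ± 0.08 in Null MEFs, which did not pass, and -0.86 ± 0.08 in DKO MEFs, which did (adjusted p = 1e-07 in edgeR's quasi-likelihood test after Benjamini-Hochberg adjustment). The Null value for Pcdhb17 passed with DESeq2 size factors (0.22), library size alone (0.35) and a filter at a mean of 1 CPM (0.27), and with DESeq2 (0.22). Pcdhgc5 rose in Null MEFs alone, yet its interaction of -0.80 did not pass (adjusted p = 0.0995 in edgeR's quasi-likelihood test after Benjamini-Hochberg adjustment), so a difference between the lines was not shown for it.

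Single libraries decided several of these calls. The count below 0 was 5 without DKO control replicate 2, and the count above 0 was 2 without Null control replicate 1, DKO control replicate 3 or Null etoposide replicate 2, since Pcdhgb2 then passed (1.01, 0.89 and 0.95). Pcdhga12 (-0.99) passed with all libraries but not without Null control replicate 1 (-0.84) or 3 (-0.78), DKO control replicate 1 (-0.95) or 2 (-1.02), Null etoposide replicate 1 (-1.03) or 3 (-0.90), or DKO etoposide replicate 2 (-0.94) or 3 (-0.96). Pcdhb19 (-0.61) no longer passed without Null control replicate 1 (-0.60) or 3 (-0.59), DKO control replicate 2 (-0.55), Null etoposide replicate 1 (-0.52) or 2 (-0.53), or DKO etoposide replicate 2 (-0.57). Pcdhb21 (-0.50) no longer passed without Null control replicate 2 (-0.46) or 3 (-0.38), DKO control replicate 2 (-0.45), Null etoposide replicate 3 (-0.45) or DKO etoposide replicate 3 (-0.47), and Pcdhb14 (-1.21) no longer without Null etoposide replicate 2 (-0.87). With library size alone Pcdhb19 (-0.50), Pcdhb21 (-0.39) and Pcdhga12 (-0.89) no longer passed, nor did Pcdhga12 with a replicate block (-0.9986). Pcdhgc5 passed without DKO control replicate 1 (-1.02) or DKO etoposide replicate 1 (-1.07), Pcdhb15 without Null etoposide replicate 1 (-1.04) and Pcdhgb6 without Null etoposide replicate 3 (-1.72).

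**Figure D5:**
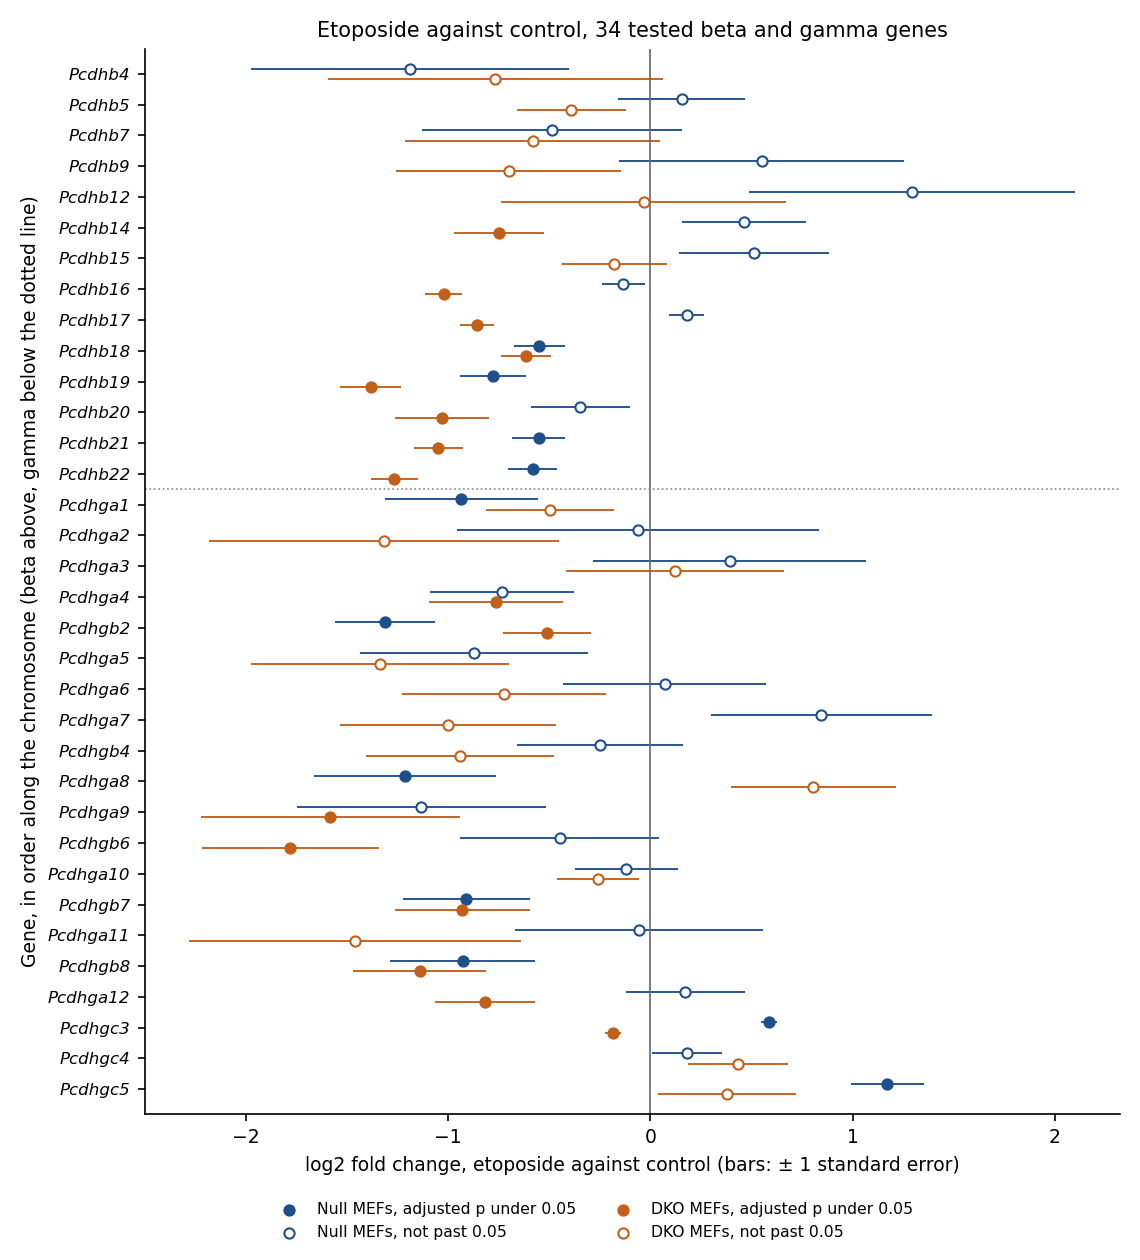
Log2 fold change of etoposide against control (horizontal axis, ± 1 SE) for the 34 tested beta and gamma genes in order along the chromosome, in Null and in DKO MEFs, with filled points where edgeR's adjusted p was under 0.05. No filled point of DKO MEFs lies right of 0, whereas Pcdhgc3 and Pcdhgc5 do in Null MEFs, and with library size alone the Pcdhgc3 value in DKO MEFs moves from -0.18 to 0.09.

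The genes known to act on protocadherin promoters were followed as a list of 32, all tested. Counts in the lists are read against the shares over all tested genes, which were 41.7% higher and 36.8% lower after etoposide in Null MEFs, 44% and 31.3% in DKO MEFs, 33.4% higher and 34.1% lower in DKO control, 36.9% and 35.2% in DKO after etoposide, and 29.9% above and 24.7% below 0 in the interaction. Where a count of list genes is 5 or fewer the genes are named, a choice made after their values were seen. After etoposide, 4 (Esco2, Lrif1, Rest and Tet1) were higher (12.5%) and 25 lower (78.1%) in Null MEFs, with a median log2 fold change of -0.51, and 7 were higher (21.9%) and 19 lower (59.4%) in DKO MEFs, with a median of -0.29. The all-gene medians were 0.07 and 0.14. With library size alone the all-gene median in DKO MEFs shifted by 0.27, near the size of the list's median there. How far that list median lies below 0 therefore depends on the scaling. In DKO against Null MEFs, 11 were higher (34.4%) and 16 lower (50%) in control, at a median of -0.11 (-0.12 to -0.05 with 1 library left out), and 16 higher (50%) and 4 lower (Rad21, Smc3, Tet1 and Rest, 12.5%) after etoposide, at a median of 0.12. The interaction was above 0 for 19 (59.4%) and below 0 for 3 (Esco2, Ehmt2 and Rest, 9.38%), with a median of 0.23.

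Ctcf, whose protein binds the promoters and their enhancers, was at 162 ± 3.85 CPM in Null control, 149 ± 1.87 CPM in DKO control, 101 ± 4.90 CPM in Null etoposide and 109 ± 3.80 CPM in DKO etoposide libraries. It fell after etoposide in both lines, by 0.69 ± 0.04 in Null and 0.46 ± 0.04 in DKO MEFs on the log2 scale, and its interaction was 0.23 ± 0.06 (edgeR's quasi-likelihood test after Benjamini-Hochberg adjustment, adjusted p = 0.00264). The log2 fold change of Ctcf in DKO against Null MEFs was -0.12 ± 0.04 in control and 0.11 ± 0.04 after etoposide, and neither call was firm. The value in control no longer passed without Null control replicate 2 (-0.10) or DKO control replicate 3 (-0.11). The value after etoposide no longer passed with DESeq2 size factors (0.05), DESeq2 (0.05), no filter (0.09) or a filter at a mean of 1 CPM (0.05), nor without Null etoposide replicate 3 (0.08) or DKO etoposide replicate 2 (0.07) or 3 (0.09).

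Rad21, a cohesin subunit, was at 569 ± 12.5, 447 ± 4.09, 468 ± 13.4 and 364 ± 6.23 CPM in the order Null control, DKO control, Null etoposide and DKO etoposide. Wapl, which releases cohesin from DNA and is named Wapal in the table, was at 231 ± 9.36, 217 ± 3.80, 152 ± 6.80 and 177 ± 2.61 CPM. Rad21 was lower in DKO under both treatments, by -0.35 ± 0.03 in control and -0.36 ± 0.03 after etoposide. Its interaction of -0.02 did not pass, and it became 0.09 with library size alone, 0.01 without Null control replicate 3 and 0.00 without Null etoposide replicate 2. For Wapl, the log2 fold change in DKO against Null control, -0.09 ± 0.04, passed with all libraries, but not with DESeq2 size factors (-0.09) or a replicate block (-0.09), nor without Null control replicate 2 (-0.06) or 3 (-0.10) or DKO control replicate 1 (-0.09), 2 (-0.09) or 3 (-0.11). The falls of Rad21 and Wapl after etoposide in DKO MEFs, of -0.30 each, became -0.02 each with library size alone and no longer passed.

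Smchd1, a silencing factor of the clusters, was at 259 ± 4.47 CPM in Null control, 271 ± 6.59 CPM in DKO control, 128 ± 3.65 CPM in Null etoposide and 159 ± 6.85 CPM in DKO etoposide libraries. Its log2 fold change in DKO against Null control, 0.07 ± 0.04, did not pass and became -0.05 with library size alone. Dnmt3b, a DNA methyltransferase that marks these promoters, was at 5.29 ± 0.220, 2.95 ± 0.483, 5.16 ± 0.450 and 5.99 ± 0.546 CPM in that order. Dnmt3b was lower in DKO control than in Null control, by -0.84 ± 0.13 on the log2 scale (edgeR's quasi-likelihood test after Benjamini-Hochberg adjustment, adjusted p = 1.86e-05). It rose by 1.01 ± 0.13 after etoposide in DKO MEFs (edgeR's quasi-likelihood test after Benjamini-Hochberg adjustment, adjusted p = 2e-06). In Null MEFs its value after etoposide, -0.04 ± 0.12, did not pass, and it became 0.01 with DESeq2 size factors, 0.01 with DESeq2, 0.13 with library size alone, 0.05 with a filter at a mean of 1 CPM and 0.01 without Null etoposide replicate 2. Among the demethylases, Tet1 was at 1.95 ± 0.192 CPM in Null control, 0.894 ± 0.346 CPM in DKO control, 13.9 ± 1.76 CPM in Null etoposide and 5.73 ± 0.488 CPM in DKO etoposide libraries, and Tet2 was lower in DKO control by -0.98 ± 0.05. The part of any of these genes in the protocadherin levels was not tested.

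Proteins that bind or process protocadherins were a list of 26, of which 25 were tested. After etoposide 8 were higher (32%) and 14 lower (56%) in Null MEFs, at a median of -0.40, and 8 higher (32%) and 15 lower (60%) in DKO MEFs, at a median of -0.42. In DKO against Null MEFs, 10 were higher (40%) and 8 lower (32%) in control, at a median of 0.02 (0.00 to 0.05 with 1 library left out) that became -0.10 with library size alone, and 12 higher (48%) and 9 lower (36%) after etoposide, at a median of 0.23. The interaction was above 0 for 12 (48%) and below 0 for 5 (Ptk2, Ptk2b, Abi1, Marcks and Prkcd, 20%), at a median of 0.24. Cyfip2, higher after etoposide in both lines, passed the filter through etoposide libraries alone, and Wasf3, lower in DKO under both treatments, through Null libraries alone. Ret, a receptor kinase that associates with protocadherins, was at 14.4 ± 0.364 CPM in Null control, 0.209 ± 0.0495 CPM in DKO control, 61.4 ± 3.00 CPM in Null etoposide and 1.23 ± 0.217 CPM in DKO etoposide libraries. Ptk2b, a kinase that alpha and gamma protocadherins inhibit, was at 9.38 ± 0.511, 51.9 ± 2.61, 30.9 ± 1.84 and 21.8 ± 1.29 CPM in that order.

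Protocadherins outside the clusters numbered 12, of which 8 were tested. In DKO against Null MEFs, none was higher and 6 were lower (75%) in control, at a median log2 fold change of -4.05, or -3.38 with genes near 0 counts at their limits, and none was higher and 6 lower (75%) after etoposide, at a median of -3.94. Pcdh1, Pcdh7 and Pcdh9 had at most 1 count in any DKO control library, and these, Pcdh10 and, after etoposide, Pcdh17 passed the filter through Null libraries alone, so the counts do not support a direction of the list. Over the 3 genes at the cutoff in both lines the median was -1.93 in control, with 2 lower, and 0.01 after etoposide, with 1 lower. After etoposide 4 (Pcdh1, Pcdh7, Pcdh10 and Pcdh15) were higher and 2 (Pcdh18 and Pcdh19) lower in Null MEFs, at a median of 1.07, and 5 (Pcdh1, Pcdh7, Pcdh9, Pcdh15 and Pcdh19) higher and Pcdh18 lower in DKO MEFs, at a median of 1.68, or 1.86 with limits, where Pcdh15 passed the filter through etoposide libraries alone and could hardly be other than higher. Over the 6 genes at the cutoff under both treatments, the medians were 0.46 in Null and 1.68 in DKO MEFs. Among them, Pcdh1, Pcdh7, Pcdh9 and Pcdh10 reached the cutoff through Null libraries alone and were near 0 counts in DKO control. The DKO median therefore does not support a rise of the list. The interaction was above 0 for 2 of the 8 (Pcdh9 and Pcdh19) and below 0 for none, at a median of 1.84. The call for Pcdh9 rests on at most 1 count in any DKO control library. Here and in the other lists, interaction values and medians come from fits without limits for genes near 0 counts, so they are not exact. Interaction calls of such genes are no support for a direction. Leaving out 1 library, which lets 8 to 10 genes pass the filter, gave medians of 0.54 to 2.18 for the interaction, -3.25 to -2.16 in control, -3.96 to -2.16 after etoposide and 1.88 to 4.43 for etoposide in DKO MEFs. For each of these counts of 0, edgeR at an unadjusted p under 0.05, DESeq2 and limma gave 0 as well. The rise of Pcdh7 in DKO MEFs no longer passed without DKO control replicate 1 (2.17) or 3 (2.24) or DKO etoposide replicate 1 (1.97). Pcdh7 was 527-fold lower in DKO control, with an exact binomial 95% interval of 94.1 to 20842. Pcdh19, at 94.7 ± 1.95 CPM in Null control, 18.4 ± 0.490 CPM in DKO control, 35.3 ± 2.96 CPM in Null etoposide and 31.1 ± 2.02 CPM in DKO etoposide libraries, fell in Null and rose in DKO MEFs, with an interaction of 2.18 ± 0.08 (edgeR's quasi-likelihood test after Benjamini-Hochberg adjustment, adjusted p = 1.76e-12).

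The list of other cadherins also holds Ret, counted above as a partner, and 28 of its 41 genes in the table were tested, of which 7 were higher (25%) and 13 lower (46.4%) in DKO than in Null control, at a median of -0.42, or -0.19 with limits. After etoposide 7 were higher (25%) and 14 lower (50%) in DKO, at a median of -0.32. Etoposide raised 14 (50%) and lowered 9 (32.1%) in Null MEFs, at a median of 1.02, and raised 14 (50%) and lowered 9 (32.1%) in DKO MEFs, at a median of 0.81 that ran up to 1.65 with 1 library left out. Of the raised genes 6 in Null and 7 in DKO MEFs passed the filter through etoposide libraries alone, so these counts do not support a rise of the list, and over the 20 genes at the cutoff under both treatments the medians were 0.20 and 0.11. Through Null libraries alone passed Cdh10, Clstn3 and Dsc2 among those lower in DKO, and after etoposide also Cdh26 and Dsc1, while Cdh22, higher there, passed through DKO libraries alone. Cdh22 and Celsr3, called lower in DKO control, had 0 counts in every DKO control library and few in Null control. With 3 counts over the group as the floor, they were at least 2.41-fold and 5.51-fold lower. The interaction was above 0 for 8 (28.6%) and below 0 for 8 (28.6%), at a median of 0.04 (-0.07 to 0.13 with 1 library left out).

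Genes beside the clusters were a list of 28, with Pcdh1 and Pcdh12 counted here again and Pcdh1 lower in DKO with the limit given above, of which 27 were tested. In control, Taf7 alone was higher in DKO (3.7%) and 18 were lower (66.7%), at a median of -0.38, and after etoposide 9 were higher (33.3%) and 13 lower (48.1%), at a median of -0.21 (-0.32 to -0.19 with 1 library left out). The effect of etoposide was higher for 9 (33.3%) and lower for 9 (33.3%) in Null MEFs, at a median of 0.04 (0.03 to 0.08), and higher for 13 (48.1%) and lower for 5 (Ankhd1, Diaph1, Rnf14, Spry4 and Sra1, 18.5%) in DKO MEFs, at a median of 0.23. The fall of Spry4 there became -0.35 with library size alone and no longer passed. The interaction was above 0 for 11 (40.7%) and below 0 for 7 (25.9%), at a median of 0.16 (0.08 to 0.21). Taf7, a transcription factor subunit gene between the beta and gamma clusters, was at 13.2 ± 0.419 CPM in Null control, 18.2 ± 0.677 CPM in DKO control, 37.0 ± 0.255 CPM in Null etoposide and 41.5 ± 3.85 CPM in DKO etoposide libraries. Taf7 rose in both lines after etoposide, with a log2 fold change of 1.48 ± 0.06 in Null and 1.20 ± 0.06 in DKO MEFs, while 0 of the 14 tested beta genes were higher in either line in edgeR. At an unadjusted p under 0.05 edgeR gave 1 higher beta gene in Null MEFs, Pcdhb17, and 0 in DKO MEFs, as did DESeq2 after adjustment, and limma gave 0 in both.

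Markers of other cell types were followed because protocadherins are best known from neurons. The 24 neuronal and glial markers summed to 398 ± 6.26 CPM in Null control, 242 ± 1.74 CPM in DKO control, 427 ± 11.1 CPM in Null etoposide and 231 ± 8.03 CPM in DKO etoposide libraries. Nes, which dividing fibroblasts in culture also express, took the most counts, Olig2 had at most 3 counts in every library, and 5 of the 24 had a mean over 1 CPM. Of 15 tested, 1 was higher (Map2, 6.67%) and 7 lower (46.7%) in DKO than in Null control, at a median of -1.65, or -1.12 with limits, and 1 was higher (Map2 again) and 7 lower (46.7%) after etoposide, at a median of -0.81. Etoposide raised 9 (60%) and lowered 2 (13.3%) in Null MEFs, at a median of 0.53 (0.35 to 0.84 with 1 library left out), and raised 11 (73.3%) and lowered 2 (13.3%) in DKO MEFs, at a median of 1.74. Elavl3, Gad1, Gfap, Nefh and Rbfox3, raised in both lines, and Stmn2 and Syt1, raised in DKO MEFs, passed the filter through etoposide libraries alone, so these counts do not support a rise of the list. Over the 8 markers at the cutoff under both treatments the medians were 0.17 in Null and 0.60 in DKO MEFs. Stmn2, lower in DKO, and Rbfox3, lower in DKO after etoposide, passed through Null libraries alone. The interaction was above 0 for 3 (Tubb3, Syt1 and Slc17a7, 20%) and below 0 for 2 (13.3%), at a median of 0.04, whose sign was not firm, since leaving out 1 library gave -0.18 to 0.74. Syt1 had 0 counts in every DKO control library, so its interaction is no support for a direction. Map2 and Sox2 were the genes that etoposide lowered in each line and those with an interaction below 0.

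Fibroblast markers after etoposide were higher for none and lower for 16 of 18 (88.9%) in Null MEFs, at a median of -1.02, and higher for 1, Thy1 (5.56%), and lower for 17 (94.4%) in DKO MEFs, at a median of -1.13. The rise of Thy1 in DKO MEFs, of 1.79 ± 0.70, came mainly from 1 library, since it was 0.50 without DKO etoposide replicate 2 and no longer passed, nor did it without DKO control replicate 2 (1.65) or 3 (1.52). No fibroblast marker was higher in Null MEFs in edgeR at an unadjusted p under 0.05 (0), or with DESeq2 (0) or limma (0). In DKO against Null MEFs, their medians were 0.86 in control and 0.75 after etoposide, and the interaction was above 0 for 6 (33.3%) and below 0 for 6 (33.3%), at a median of 0.01 (-0.05 to 0.06 with 1 library left out).

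The remaining marker lists were low. Epithelial markers, Krt19 first, summed to 16.4 ± 0.731 CPM in Null control, 36.8 ± 0.887 CPM in DKO control, 25.8 ± 1.73 CPM in Null etoposide and 16.6 ± 0.302 CPM in DKO etoposide libraries. Endothelial markers, Flt1 first, summed to 15.3 ± 0.780, 2.16 ± 0.413, 9.84 ± 0.370 and 3.57 ± 0.426 CPM in that order. Immune markers, Cd68 first, summed to 2.06 ± 0.264, 2.15 ± 0.543, 14.02 ± 0.603 and 4.07 ± 0.471 CPM, and muscle markers, Tnnt2 first except in Null etoposide, where Des was, to 4.65 ± 0.153, 5.004 ± 0.451, 40.6 ± 2.72 and 6.10 ± 0.209 CPM.

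Of 9 tested epithelial markers, 2 were higher (Krt8 and Krt19) and 3 lower (Epcam, Krt18 and Ocln) in DKO than in Null control, and 0 higher and 6 lower after etoposide. Etoposide raised 6 and lowered Krt8 in Null MEFs, and raised 5 (Epcam, Cdh1, Krt5, Krt14 and Ocln) and lowered Krt8 and Krt19 in DKO MEFs, with an interaction above 0 for Epcam and below 0 for Krt8 and Krt19. Of 5 endothelial markers, 0 were higher in DKO under either treatment, Flt1 was lower in control, and Flt1 and Tek were lower after etoposide. Etoposide raised Pecam1, Cdh5, Kdr and Tek in both lines and lowered Flt1 in Null MEFs alone, with an interaction above 0 for Flt1 and below 0 for Tek.

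Of 5 tested immune markers, Csf1r was higher and Lyz2 lower in DKO than in Null control, and 0 were higher and Cd68 and Lyz2 lower after etoposide. Etoposide raised Ptprc, Cd68, Csf1r and Lyz2 in Null MEFs and Ptprc, Cd68 and Lyz2 in DKO MEFs and lowered 0, with an interaction above 0 for Lyz2 and below 0 for Cd68 and Csf1r. Lyz2 had 0 counts in every DKO control library, so its interaction is no support for a direction. Of 3 muscle markers, Tnnt2 was higher and Des lower in DKO than in Null control, and 0 were higher and Des lower after etoposide. Etoposide raised Des, Myh3 and Tnnt2 in Null MEFs, and in DKO MEFs it raised Des and Myh3 and lowered Tnnt2, whose fall became -0.17 with library size alone and no longer passed, with an interaction below 0 for Des and Tnnt2.

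Many of these calls came from genes that passed the filter through 1 side alone and do not support a direction. Raised by etoposide, these were Pecam1, Cdh5, Kdr, Tek, Krt5, Krt14, Ocln, Ptprc, Myh3 and, in Null MEFs, Cldn4. Lower in DKO, they were Krt18, Ocln, Lyz2 and, after etoposide, Krt5 and Krt14. For each count of 0 in these lists, edgeR at an unadjusted p under 0.05, DESeq2 and limma also gave 0. In the order epithelial, endothelial, immune and muscle, median log2 fold changes in DKO against Null control were 0.67 (0 with limits), -0.85 (0 with limits), -0.01 (0 with limits) and -0.03 (0 with limits), and after etoposide -0.79, -0.89, -0.88 and -0.15. Medians for etoposide were 1.19, 3.75, 1.74 and 4.10 in Null MEFs and 1.10, 2.55, 1.18 and 2.61 in DKO MEFs, and for the interaction -1.27, -0.03, -0.34 and -1.03, of which the endothelial value became 0.07 with library size alone. Over the 4, 1, 3 and 2 genes at the cutoff under both treatments, etoposide medians were 0.39, -1.08, 1.74 and 2.34 in Null MEFs. In DKO MEFs they were -0.18, 0.27, 0.996 and 1.08. The sign for endothelial markers in Null and for epithelial markers in DKO MEFs thus depended on the filter. With 3 to 9 tested genes, these lists were not read against the shares over all genes, and several of their medians changed sign or size when 1 library was left out. Their part in the protocadherin results was not tested.

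The share of reads that the counting matched to no annotated feature differed between groups as well. Whether these reads lay within introns of genes or outside genes is not given. It was 22.5% to 24.2% in Null control, 20.2% to 21.1% in DKO control, 25.1% to 27.3% in Null etoposide and 21.2% to 22.3% in DKO etoposide libraries. Alpha genes with 0 counts in all 3 libraries of a group numbered 12 in Null control, 12 in DKO control, 6 in Null etoposide and 9 in DKO etoposide. The part of reads without a matched feature in these single counts was not tested.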

How the data were processed

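The authors deposited whole counts per gene, without normalization. Per the methods, HISAT2 aligned the reads and HTSeq counted unique pairs, whereas the submitters' processing notes name HISAT2, featureCounts and mm10, and versions and the strand setting are not given in the sources used here. From these counts, edgeR 4.0.16 in R 4.3.3 computed TMM-scaled CPM and log2 fold changes, with its filter on low counts and 1 quasi-likelihood fit of all 12 libraries, Benjamini-Hochberg adjusted over 15220 genes at 0.05. Alternatives were DESeq2 size factors, library size alone, DESeq2 1.42.0, limma-trend 3.58.1, other filters, a replicate block and leaving out each library. Named genes were the C-type genes, the 2 of each type with the highest mean CPM and, per comparison, up to 3 with the largest rise or fall past 0.05 without overlap, and for lists Ctcf, Rad21, Smchd1, Dnmt3b, Wapl and up to 2 per comparison with a mean of 1 CPM. These, and each family gene where it passed, were put through the alternatives, and which list genes the text prints was decided after their values were seen. The 11 gene lists were promoter regulators, partners, non-clustered protocadherins, cadherins, neighbours and 6 marker lists. The genes and lists were chosen with earlier results of these data known.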

Additional observations from a re-analysis of the deposited data

Results flagged for a closer look

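For 9 of 35 tested clustered protocadherin genes the effect of etoposide differed between DKO and Null MEFs by the interaction term of edgeR's quasi-likelihood test after Benjamini-Hochberg adjustment. That was no more than over all tested genes, with 22.9% below 0 where 24.7% of all tested genes were, and 2.86% above 0 where 29.9% were. By cluster, 42.9% of tested beta and 10% of tested gamma genes were below 0. The etoposide effect in DKO minus that in Null MEFs, on the log2 scale, was -1.21 for Pcdhb14, -0.89 for Pcdhb16, -1.04 for Pcdhb17, -0.61 for Pcdhb19, -0.50 for Pcdhb21, -0.68 for Pcdhb22, -0.99 for Pcdhga12, -0.77 for Pcdhgc3 and 2.02 for Pcdhga8. Of these, Pcdhga12 no longer passed in 8 of 12 fits with 1 library left out, with library size alone and with a replicate block. Pcdhb19 was lost in 6 and Pcdhb21 in 5 of the 12 fits and both with library size alone, and Pcdhb14 in 1. No group had more than 3 libraries, so no single library was tested for standing apart. The causes of these differences were not tested.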

How the results depend on the processing

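Over the alternatives, values of named genes kept their direction and their side of the threshold 3909 times, no longer passed 114 times, newly passed 22 times and reversed 30 times, and counts and sums stayed close to their values 198 times and moved 20 times. A count is said to move when it changes by a factor of over 1.5, and a sum when it changes by over 1 SD. Leaving out 1 of the 3 libraries of a group cannot shift its mean by 1 SD, so no sum could move in those fits. Their sums are among the 198 and are no evidence of stability.

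With library size alone, etoposide in DKO MEFs gave 3 higher and 9 lower genes, the interaction gave 2 above and 5 below 0, beta sums were 73.0 CPM in DKO control, 30.2 CPM in Null etoposide and 45.7 CPM in DKO etoposide, and gamma sums 73.8, 140 and 75.1 CPM in that order. Reversed log2 fold changes were 0.0344 for Pcdhb16, 0.048 for Pcdhga10 and 0.1306 for Dnmt3b after etoposide in Null MEFs, 0.0895 for Pcdhgc3, 0.0153 for Pcdhga10 and 0.0929 for Pcdhb15 after etoposide in DKO MEFs, -0.0547 for Smchd1 in DKO against Null control, and 0.0849 for Pcdhgb7 and 0.0902 for Rad21 in the interaction. The cause was not tested.

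With DESeq2 size factors the gamma sum of DKO etoposide was 68.8 CPM, and Dnmt3b after etoposide in Null MEFs reversed to 0.0086, as it did with DESeq2 (0.0086). With limma-trend the interaction of Pcdhgb7 was 0.0467. The cause was not tested. A filter at a mean of 1 CPM left 15 genes tested, with 5 lower after etoposide in Null MEFs, 12 higher in DKO control, 4 lower in DKO after etoposide and 0 with an interaction above 0, since fewer genes were tested, and Dnmt3b in Null MEFs was 0.0492. Asking for the filter's cutoff in 3 libraries of each line or treatment, a choice made after the data were seen, left 27 and 30 genes and no count moved, and it gives no value for the interaction.

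With the replicate number as a block, the genes higher in DKO were 18 in control in place of 19 and 13 after etoposide in place of 14, and those with an interaction below 0 were 7 in place of 8, with Pcdhga12 lost (-0.9986). Wapl in DKO against Null control no longer passed (-0.09), and no value reversed. Over 18 pairs of libraries with the same number from different groups, correlations ran from -0.03 to 0.04, with 13 above 0, and over 36 pairs of other numbers from -0.05 to 0.05, with 14 above 0. Of 12 libraries, 7 were closest to one of their own number, where 4 would be by chance. These values show no large pairing, and a small one cannot be told from none.

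Leaving out each library in turn, with the spread pooled over the rest, gave 7 to 10 lower and 2 to 3 higher genes after etoposide in Null MEFs, 13 to 17 lower and 0 to 0 higher in DKO MEFs, 17 to 18 higher and 4 to 7 lower in DKO against Null control, 14 to 15 higher and 6 to 8 lower after etoposide, and 1 to 2 above and 5 to 9 below 0 in the interaction. Single genes that reversed ranged from -0.2726 to 0.1879 for Pcdhgb7, -0.4105 to 0.1405 for Pcdhga10 and -0.0409 to 0.0061 for Rad21 in the interaction, -0.0521 to 0.4671 for Pcdhac2, -0.4037 to 0.1471 for Pcdhga10, -0.0461 to 0.5888 for Pcdhga12 and -0.1152 to 0.0123 for Dnmt3b after etoposide in Null MEFs, -0.2823 to 0.1987 for Pcdhga8 in DKO against Null control, and -0.0537 to 0.0331 for Tfe3 in DKO against Null MEFs after etoposide. The cause was not tested.

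Beta sums ranged from 31.2 to 33.6 CPM in Null control, 81.1 to 84.3 in DKO control, 27.2 to 28.3 in Null etoposide and 41.5 to 43.5 in DKO etoposide, gamma sums from 88.0 to 91.8, 81.9 to 84.2, 128 to 132 and 69.8 to 70.1 CPM, and alpha sums from 0.316 to 0.442, 0.00752 to 0.0184, 0.414 to 0.479 and 0.0168 to 0.0302 CPM.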
